A study of Homo sapiens with 8 samples.

Results

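The pyruvate dehydrogenase complex and its regulators are represented in the screen by 10 genes, PDHA1, PDHB, DLAT, PDHX, DLD, PDK1, PDK2, PDK3, PDP1 and PDP2, out of 18913 genes in the count table. All single guide RNAs (sgRNAs, guides) assigned to these gene names were taken, which gave 60 of 111627 guides against genes, 6 for each member. The genes were chosen by function, with results of this screen known. PDP1 is taken to be the gene that led to the choice. Its guides had the lowest p of all genes for being more abundant in GSI than in DMSO cultures. Its values in that comparison, and in comparisons that use the same libraries, are therefore a description and no independent evidence. The screen was a loss-of-function CRISPR/Cas9 screen in MB157R, a triple-negative breast cancer line made resistant to γ-secretase inhibition by long exposure to a γ-secretase inhibitor (GSI), and in every group the cells carried Cas9 and the human GeCKOv2 guide library, parts A and B. After transduction to a minimal 200-fold coverage and 4 days of puromycin, all cells were joined in 1 pool, from which 2 T0 aliquots were taken without further treatment. The rest was grown for 14 days in 3 cultures with the vehicle DMSO or in 3 cultures with the GSI LY3039478 at 10 µM. All 8 libraries thus derive from 1 transduction of 1 resistant line. The p-values measure only the spread between aliquots or cultures of that pool.

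The pyruvate dehydrogenase complex sits in the mitochondrial matrix and turns pyruvate, the end product of glycolysis, into acetyl-CoA for the tricarboxylic acid cycle. Its E1 part, made of PDHA1 and PDHB, removes carbon dioxide from pyruvate with the help of thiamine diphosphate. The E2 part, DLAT, passes the acetyl group on through lipoate arms, and the E3 part, DLD, reoxidises these arms, held in the complex by the E3-binding protein PDHX. Pyruvate dehydrogenase kinases (PDK1, PDK2 and PDK3) phosphorylate PDHA1 and switch the complex off, whereas the phosphatases PDP1 and PDP2 remove the phosphate and switch it on again. In tumour cells, this switch is known as a control point between lactate release and oxidation of pyruvate. In a pooled screen, a guide that becomes rarer over time marks cells that were outgrown by the rest of the pool, and a guide that becomes more frequent marks cells that outgrew it.

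The libraries held 12052218 to 18212884 counts, and the 60 member guides had median counts from 68 to 139 per library. At T0, 3 and 9 of the member guides were at a count of 0 in replicates 1 and 2, against 0 to 2 in each library of day 14. Of the 60 guides, 59 averaged 10 raw counts or more across libraries and were tested, and the remaining guide, against PDK2, was not tested. GSI replicate 1 stood apart in that a guide against VPS33B, a protein of endosomal and lysosomal traffic, took 38.8% of its counts, whereas the share of the most abundant guide was at most 1.52% in the other libraries. Over all tested guides, GSI replicate 1 also had a Spearman correlation of 0.818 with DMSO replicate 1, while all other pairs of libraries lay between 0.382, for the T0 pair, and 0.733. Whether these libraries hold cells or reads in common was not tested, and the fits treat them as independent. The medians of the member genes and of the member guides in GSI against DMSO are therefore given with and without each of them, and all other values of that comparison with every library. The effect of each knockout on protein or on enzyme activity was not measured, and guide counts in genomic DNA hold no expression with which the labelled cell type could be checked against markers.

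Abundance is given as the raw count divided by the median-ratio size factor of the library (normalized count). The level of a gene in a library is the log2 normalized count plus 1 of each tested guide, less that guide's T0 mean, taken as a median over its guides. Gene log2 fold changes are medians of the guide values from edgeR fits, each followed by the SD of those guide values. Genes were compared by robust rank aggregation (RRA) of the guide p-values, low and high side apart, with p-values adjusted over 18570 genes.

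PDP1, the catalytic subunit of the calcium-responsive pyruvate dehydrogenase phosphatase (chr8:93857807-93926068, plus strand, GRCh38), was the member that stood farthest from the middle of all genes in GSI against DMSO. Its level relative to T0 was -0.06 and 0.06 at T0, -1.05, -2.03 and -0.84 with DMSO, and -0.60, 0.54 and 0.64 with GSI. The DMSO cultures all lay below the T0 aliquots, and the GSI cultures all lay above the DMSO cultures, although GSI replicate 1, at -0.60, was close to DMSO replicate 3, at -0.84. The mean normalized count over the 6 guides was 81.7 and 80.8 at T0, 34.0, 26.0 and 46.3 with DMSO, and 46.0, 96.3 and 82.7 with GSI, so that on this scale GSI replicate 1 and DMSO replicate 3 overlapped. The group means were 81.3 ± 0.627 (SD, n = 2) at T0, 35.4 ± 10.2 (SD, n = 3) in DMSO and 75.0 ± 26.0 (SD, n = 3) in GSI cultures. The small SD at T0 is that of a mean over guides, and single guides differed widely between the aliquots, such as guide 4 at 138 and 0.

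The 6 guides against PDP1 contributed unequally. PDP1 guide 1 had normalized counts of 83.7 and 79.7 at T0, 25.2, 9.93 and 29.6 with DMSO, and 76.8, 127 and 134 with GSI. PDP1 guide 3 had 17.6 and 67.4 at T0, 0, 0.903 and 0 with DMSO, and 13.5, 3.97 and 83.5 with GSI. PDP1 guide 5 had 41.8 and 139 at T0, 16.4, 21.7 and 29.6 with DMSO, and 26.9, 112 and 115 with GSI. These were the 3 guides with an unadjusted p under 0.05 in GSI against DMSO, with the GSI replicates above the DMSO replicates in all but the pair of GSI replicate 1 and DMSO replicate 3 of guide 5. Guide 1 had a log2 fold change of 2.38 ± 0.72 (SE), and that of guide 5 was 1.90 ± 0.81 (SE). Guide 3 rested on 1 raw count in the 3 DMSO cultures together, against 95 in the GSI cultures and 92 in the T0 aliquots. The ratio of GSI to DMSO was 93.1, with an exact 95% interval of 16.3 to 3714 that covers counting error only, and that of T0 to DMSO was 119, with an interval of 20.8 to 4733. The 3 other guides were less uniform. PDP1 guide 2 had 115 and 82.6 at T0, 74.5, 95.7 and 79.7 with DMSO, and 78.1, 141 and 13.6 with GSI, so that it was lowest in GSI replicate 3. PDP1 guide 4 had 138 and 0 at T0, 7.67, 7.22 and 57.0 with DMSO, and 24.2, 12.7 and 73.1 with GSI, and had a count of 0 in T0 replicate 2. PDP1 guide 6 had 94.5 and 117 at T0, 80.0, 20.8 and 82.0 with DMSO, and 56.6, 181 and 77.3 with GSI, with its highest value in GSI replicate 2 and its lowest in DMSO replicate 2. After adjustment over all guides, each of the 6 guides had an adjusted p of 1 in GSI against DMSO.

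**Figure D1:**
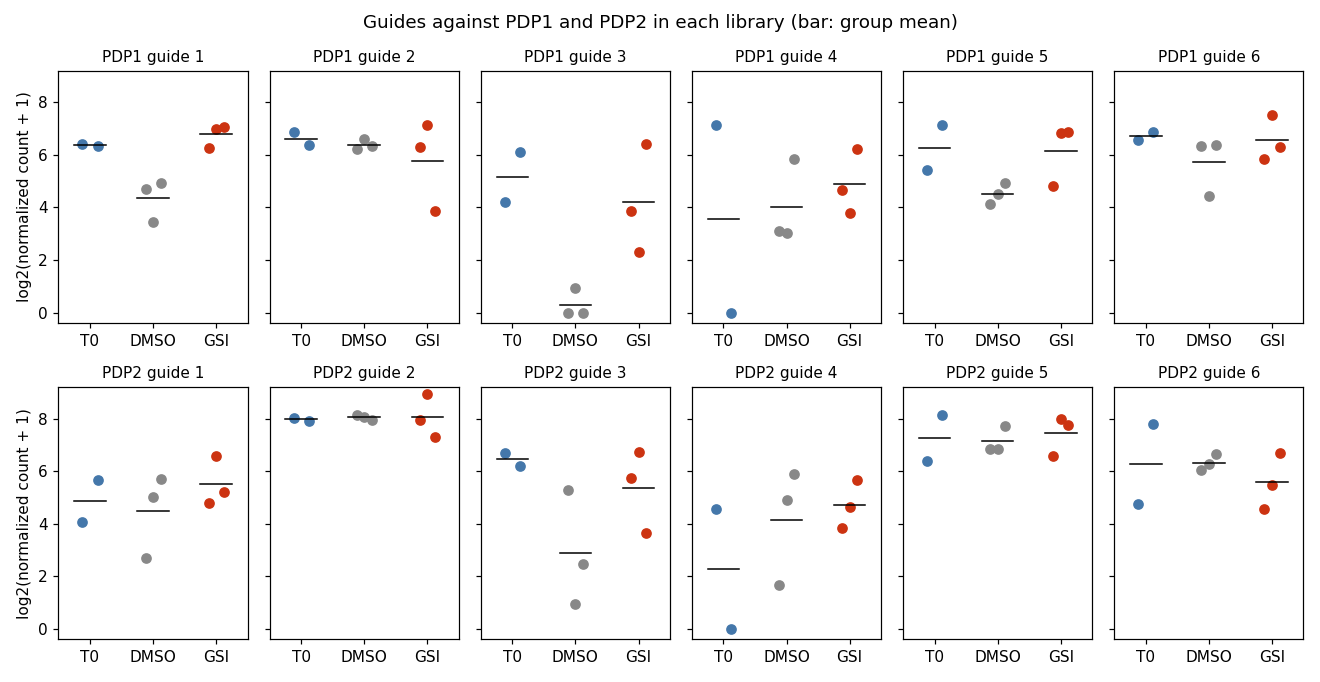
Log2 normalized counts plus 1 of each guide against PDP1 (top) and PDP2 (bottom), with 2 T0, 3 DMSO and 3 GSI libraries on the horizontal axis of each panel. Points are libraries and bars are group means; PDP1 guide 3 was at or near 0 in the 3 DMSO cultures, and no guide against PDP2 separated the GSI from the DMSO cultures.

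In GSI against DMSO, the median of PDP1 was 1.35 ± 2.26 on the log2 scale. Of its 6 guides, 5 lay above 0. The gene ranked 1 of 18570 genes on the high side, the value it is taken to have been chosen by. With an adjusted p of 0.529 (RRA of the edgeR guide tests), it did not pass the threshold. The median was 1.70 without GSI replicate 1 (adjusted p = 0.0459 in edgeR and RRA, called), 1.39 without DMSO replicate 1 (adjusted p = 0.731, rank 116) and 2.21 without DMSO replicate 3 (adjusted p = 0.623). Leaving out each of the other libraries gave medians from 1.13 to 1.33. For the other nine members, the median in GSI against DMSO lay between -0.25 and 0.27 with all libraries, between -0.42 and 0.48 without GSI replicate 1, and between -0.29 and 0.38 without DMSO replicate 1, and none was called. The part that GSI replicate 1 and its VPS33B guide play in this result was not tested further. The median was 2.38 over the 3 guides of library part A and 0.79 over the 3 guides of part B. Against T0, the DMSO cultures had a PDP1 log2 fold change of -1.72 ± 2.26, with 6 of 6 guides below 0 (edgeR and RRA, adjusted p = 0.581, rank 521 on the low side). For the GSI cultures it was -0.19 ± 0.45. The 3 comparisons share libraries, so that low values in the DMSO cultures enter both the first and the second of them.

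PDP2, the second phosphatase (chr16:66878589-66895754, plus strand), did not separate the groups. Its level relative to T0 was -0.38 and 0.38 at T0, -0.51, 0.05 and 0.42 with DMSO, and -0.37, 0.83 and 0.37 with GSI, and the DMSO and the GSI cultures overlapped. PDP2 guide 1 had normalized counts of 15.9 and 50.3 at T0, 5.48, 31.6 and 51.3 with DMSO, and 26.9, 94.6 and 35.5 with GSI. PDP2 guide 2, the most abundant, had 259 and 242 at T0, 277, 268 and 245 with DMSO, and 248, 489 and 157 with GSI. In both guides the highest value was in GSI replicate 2, and the DMSO and GSI cultures overlapped. PDP2 guide 3 had 103 and 72.1 at T0, 38.4, 0.903 and 4.56 with DMSO, and 52.5, 106 and 11.5 with GSI, which put all 3 DMSO cultures below both T0 aliquots. PDP2 guide 4 had 22.6 and 0 at T0, 2.19, 28.9 and 58.1 with DMSO, and 13.5, 23.8 and 49.1 with GSI. These 2 guides had DMSO and GSI values that overlapped. PDP2 guide 5 had 83.7 and 278 at T0, 115, 115 and 208 with DMSO, and 95.6, 249.5 and 217 with GSI. PDP2 guide 6 had 25.9 and 220.2 at T0, 64.7, 76.7 and 100.2 with DMSO, and 22.9, 43.7 and 103 with GSI. In both of these guides T0 replicate 1 was far below T0 replicate 2. PDP2 had a log2 fold change of 0.27 ± 0.85 in GSI against DMSO, -0.24 ± 1.28 in DMSO against T0 and 0.17 ± 0.88 in GSI against T0, and its lowest adjusted p on either side was 0.982 (edgeR and RRA). Over the 12 guides of both phosphatases together, 10 had a log2 fold change below 0 in DMSO against T0, 6 of PDP1 and 4 of PDP2, and 6 in GSI against T0, where 50.2% and 50.2% of all guides against genes were below 0. PDP1 is taken to have been chosen by a comparison that uses these DMSO cultures, and nothing is read from its 6 guides.

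**Figure D2:**
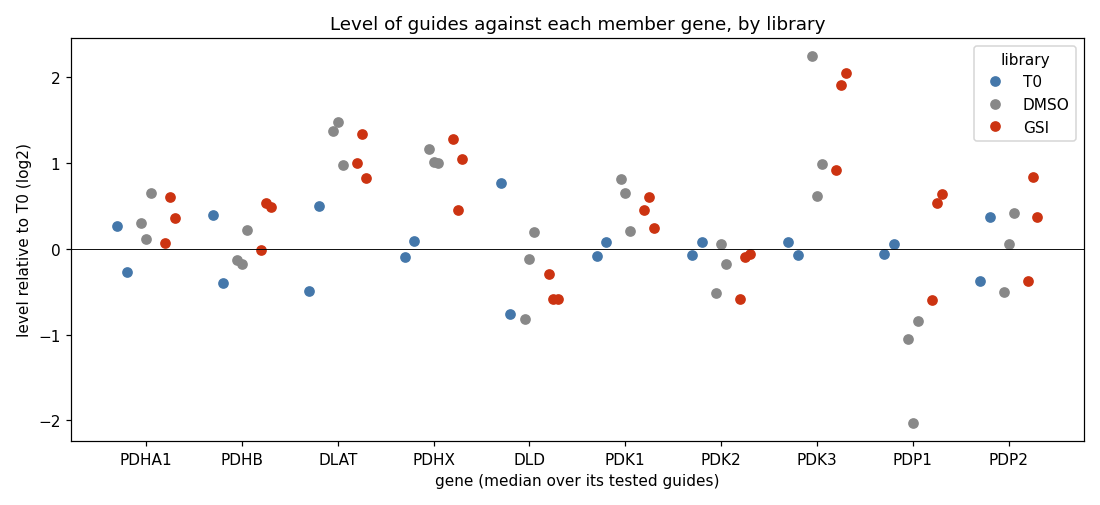
Level of each member gene in each library (log2, median over its tested guides, relative to T0), with T0, DMSO and GSI libraries in separate colours. PDP1 is the member whose 3 GSI cultures all lie above its 3 DMSO cultures. The highest single levels are those of PDK3, at 2.25 in DMSO replicate 1 and 2.05 in GSI replicate 3. In DMSO replicates 2 and 3 and GSI replicate 1, DLAT, PDHX or both lie above PDK3.

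Among the kinases, guides against PDK3 had levels above both T0 aliquots in every culture of day 14, with either treatment, but the gene did not pass the test. Levels above T0 without overlap were common, at 21.8% of all genes with DMSO and 24.0% with GSI. DLAT, PDHX and PDK1 had them too. PDK3, known as the most active kinase of the family (chrX:24465244-24550466, plus strand), had levels of 0.07 and -0.07 at T0, 2.25, 0.61 and 0.99 with DMSO, and 0.92, 1.91 and 2.05 with GSI. The DMSO and GSI cultures overlapped. The mean normalized count was 51.1 ± 0.271 (SD, n = 2) at T0, 131 ± 37.4 (SD, n = 3) in DMSO and 121 ± 9.52 (SD, n = 3) in GSI cultures. The small SD at T0 is that of a mean over guides, and single guides differed widely between the aliquots, such as guide 4 at 0 and 73.1. PDK3 guide 1 had normalized counts of 53.5 and 65.5 at T0, 352, 274 and 164 with DMSO, and 286, 199 and 198 with GSI. PDK3 guide 3 had 49.4 and 51.2 at T0, 294, 135 and 412 with DMSO, and 172, 230.4 and 275 with GSI. Each of these guides was higher in all 6 cultures of day 14 than in both T0 aliquots. PDK3 guide 2 had 127 and 99.7 at T0, 141, 58.7 and 118 with DMSO, and 123, 119 and 80.4 with GSI. PDK3 guide 4 had 0 and 73.1 at T0, 81.1, 8.12 and 76.3 with DMSO, and 13.5, 50.1 and 43.9 with GSI. Neither separated the cultures from both T0 aliquots in the same way as guides 1 and 3. PDK3 guide 5 had 56.9 and 16.1 at T0, 123, 68.6 and 38.7 with DMSO, and 66.0, 133 and 94.0 with GSI. PDK3 guide 6 had 20.9 and 0 at T0, 2.19, 2.71 and 5.70 with DMSO, and 6.73, 8.74 and 87.7 with GSI, with the highest value in GSI replicate 3 alone. It was the only guide of the kinases with an unadjusted p under 0.05 in GSI against DMSO (edgeR log2 fold change 3.24 ± 1.47 (SE), adjusted p = 1.00).

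For PDK3 guide 1 in DMSO against T0, the log2 fold change was 2.14 ± 0.64 (SE, edgeR adjusted p = 0.526) and that of guide 3 was 2.47 ± 0.69 (SE, edgeR adjusted p = 0.513). Against T0, the values with GSI were 1.95 ± 0.56 and 2.18 ± 0.57, with edgeR adjusted p of 0.478 and 0.478. As a gene, PDK3 had a log2 fold change of 0.83 ± 1.48 in DMSO against T0 (edgeR and RRA, adjusted p = 0.798, rank 106 on the high side) and 1.58 ± 0.99 in GSI against T0 (adjusted p = 0.805, rank 131), and neither passed the threshold. Both rest on the same T0 aliquots. The second was 0.79 without GSI replicate 3, and the first was 2.12 without T0 replicate 1, 1.36 without T0 replicate 2 and 0.38 without DMSO replicate 1. In GSI against DMSO the log2 fold change of PDK3 was -0.10 ± 1.42. As a mean over guides it was 0.41, and its lower p was on the high side (edgeR and RRA, adjusted p = 0.982).

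**Figure D3:**
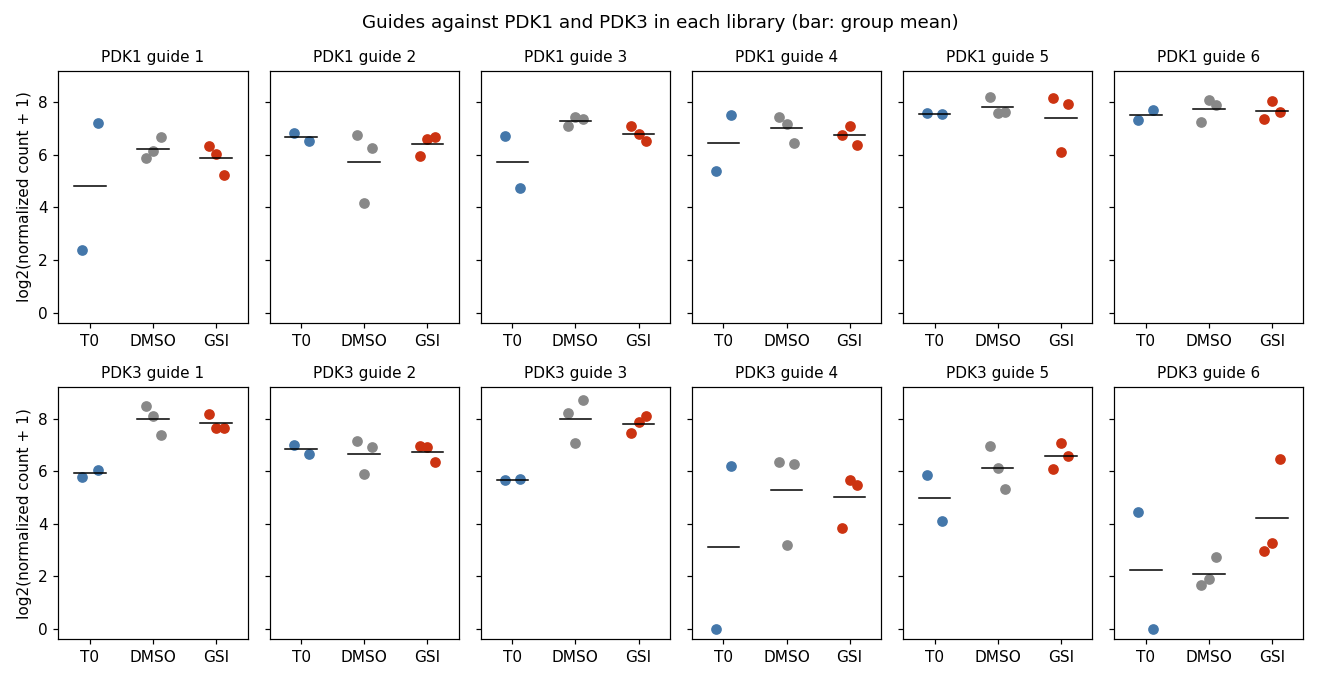
Log2 normalized counts plus 1 of each guide against PDK1 (top) and PDK3 (bottom) in 2 T0, 3 DMSO and 3 GSI libraries. Points are libraries and bars are group means; PDK3 guides 1 and 3 lie higher in all 6 cultures of day 14 than in both T0 aliquots, whereas guides against PDK1 show smaller and mixed differences.

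PDK1, the kinase induced by hypoxia (chr2:172555373-172608669, plus strand), had levels of -0.08 and 0.08 at T0, 0.81, 0.66 and 0.21 with DMSO, and 0.46, 0.60 and 0.25 with GSI. All cultures of day 14 lay above both T0 aliquots by this measure, but the DMSO and GSI cultures overlapped. By mean normalized count, PDK1 had 102 and 140 at T0 and 139, 124 and 126 with GSI, so that these overlapped. The DMSO cultures, at 153, 145 and 142, lay above both T0 aliquots. PDK1 guide 1 had normalized counts of 4.18 and 149 at T0, 58.1, 70.4 and 101 with DMSO, and 79.5, 65.2 and 36.6 with GSI. PDK1 guide 2 had 112 and 92.1 at T0, 106, 17.2 and 75.2 with DMSO, and 62.0, 96.2 and 101 with GSI. Neither guide separated the groups, and guide 1 differed between the T0 aliquots more than between any of the cultures. PDK1 guide 3 had 105 and 25.6 at T0, 135, 174 and 162 with DMSO, and 137, 109 and 91.9 with GSI, so that all DMSO cultures lay above both T0 aliquots. PDK1 guide 4 had 41.0 and 181 at T0, 171, 144 and 85.4 with DMSO, and 108, 136 and 82.5 with GSI. For both guides, the DMSO and GSI ranges overlapped. PDK1 guide 5 had 192 and 186 at T0, 296, 193 and 195 with DMSO, and 287, 68.3 and 245 with GSI, with the lowest value in GSI replicate 2. PDK1 guide 6 had 159.8 and 206 at T0, 150.1, 274 and 235 with DMSO, and 163, 267 and 197 with GSI. PDK1 had a log2 fold change of -0.25 ± 0.30 in GSI against DMSO, 0.26 ± 0.61 in DMSO against T0 and 0.04 ± 0.40 in GSI against T0. PDK2, the most widely expressed kinase of the family (chr17:50094737-50112152, plus strand), had levels of -0.08 and 0.08 at T0, -0.51, 0.05 and -0.17 with DMSO, and -0.59, -0.09 and -0.06 with GSI over its 5 tested guides, and the groups overlapped in all comparisons. Its log2 fold change was 0.08 ± 0.28 in GSI against DMSO, -0.17 ± 0.68 in DMSO against T0 and 0.10 ± 0.88 in GSI against T0. The untested PDK2 guide had no counts in either T0 aliquot, 19 raw counts over the DMSO cultures and 30 over the GSI cultures. That is 4.91-fold and 7.60-fold higher than a floor of 3 counts over the T0 group, which covers counting error only. PDK2 guide 2 had normalized counts of 125 and 0 in the T0 aliquots, so these values are no lower bounds.

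Guides against DLAT had the highest median of the subunits in DMSO against T0, but its size depended on the T0 aliquot. DLAT, the E2 subunit (chr11:112025408-112064404, plus strand), had levels of -0.50 and 0.50 at T0, 1.37, 1.48 and 0.97 with DMSO, and 1.01, 1.34 and 0.83 with GSI, with every culture of day 14 above both T0 aliquots and the treatments overlapping. By mean normalized count, the T0 aliquots had 21.1 and 96.2 and overlapped with both treatments. The DMSO cultures had 72.9, 111 and 79.4, and the GSI cultures 68.5, 108 and 79.9. DLAT guide 1 had normalized counts of 5.86 and 121 at T0, 106, 128 and 157 with DMSO, and 119.9, 123 and 51.2 with GSI. DLAT guide 6 had 2.51 and 238 at T0, 94.2, 103 and 59.2 with DMSO, and 102, 224 and 73.1 with GSI. Both were at under 6 in T0 replicate 1 and above 100 in T0 replicate 2, so that the aliquots of 1 pool differed by more than the cultures did. DLAT guide 2 had 23.4 and 48.4 at T0, 3.29, 25.3 and 17.1 with DMSO, and 14.8, 27.8 and 6.27 with GSI. DLAT guide 3 had 6.69 and 6.64 at T0, 32.9, 10.8 and 4.56 with DMSO, and 20.2, 5.56 and 0 with GSI. Both guides were low in every library, and their groups overlapped. DLAT guide 4 had 66.1 and 130.0 at T0, 191, 343 and 173 with DMSO, and 136, 179.6 and 302 with GSI, and was the only DLAT guide with all cultures above both T0 aliquots. DLAT guide 5 had 21.8 and 32.3 at T0, 9.86, 58.7 and 64.9 with DMSO, and 17.5, 90.6 and 47.0 with GSI. DLAT had a log2 fold change of 0.88 ± 1.04 in DMSO against T0, 0.50 ± 0.80 in GSI against T0 and -0.05 ± 0.54 in GSI against DMSO. Without T0 replicate 1 the first was 0.28, below DLD at 0.45, PDHA1 at 0.35 and PDHX at 0.99, and the second was 0.03. Without T0 replicate 2 they were 1.54 and 1.46. As a mean over guides, DLAT had 0.42 in DMSO against T0 and PDHA1 0.96. The adjusted p of DLAT was 1.00 on the high side of DMSO against T0 (edgeR and RRA).

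DLD, the E3 subunit (chr7:107891162-107931730, plus strand), is shared with the other 2-oxo acid dehydrogenases and with the glycine cleavage system. Its level was 0.76 and -0.76 at T0, -0.82, -0.11 and 0.20 with DMSO, and -0.30, -0.58 and -0.59 with GSI, and the T0 aliquots spanned the range of most cultures. DLD guide 1 had normalized counts of 377 and 213 at T0, 59.2, 56.9 and 222 with DMSO, and 137, 270.2 and 133 with GSI. DLD guide 2 had 324 and 374 at T0, 178, 255 and 367 with DMSO, and 164, 163 and 257 with GSI. DLD guide 3 had 174 and 244 at T0, 73.4, 42.4 and 35.3 with DMSO, and 79.5, 93.8 and 49.1 with GSI. All 3 guides, which come from library part A, were lower in most cultures than at T0, and guide 3 was lower in all 6 cultures than in both aliquots. Its log2 fold change was -2.05 ± 0.75 in DMSO against T0 (SE, edgeR adjusted p = 0.574) and -1.48 ± 0.60 in GSI against T0 (SE, edgeR adjusted p = 0.551). DLD guide 4 had 13.4 and 0 at T0, 12.1, 99.3 and 6.83 with DMSO, and 6.73, 0 and 2.09 with GSI, and its log2 fold change in GSI against DMSO of -3.77 ± 1.56 (SE, edgeR adjusted p = 1.00) came with a value far above the others in DMSO replicate 2. DLD guide 5 had 97.1 and 19.9 at T0, 64.7, 78.5 and 101 with DMSO, and 60.6, 69.9 and 165 with GSI. DLD guide 6 had 187 and 27.5 at T0, 44.9, 84.0 and 90.0 with DMSO, and 113, 68.3 and 42.8 with GSI. These 2 guides had no order of the groups. As a gene, DLD had a log2 fold change of -0.47 ± 1.61 in DMSO against T0, -0.76 ± 0.78 in GSI against T0 and 0.15 ± 1.68 in GSI against DMSO. The last was -0.45 as a mean over guides, and its lower p was on the low side (edgeR and RRA, adjusted p = 0.976). Without T0 replicate 1, both comparisons with T0 turned to the high side, at 0.45 with DMSO and 0.62 with GSI, and without T0 replicate 2 they were -0.83 and -1.13. With all libraries, 5 of 6 guides lay below 0 in GSI against T0, and the adjusted p on the low side was 0.935 (edgeR and RRA).

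PDHA1, the E1 subunit that carries the phosphorylation sites (chrX:19343893-19361718, plus strand), had guides that differed in direction. Its level was 0.27 and -0.27 at T0, 0.30, 0.12 and 0.65 with DMSO, and 0.07, 0.60 and 0.36 with GSI, and the groups overlapped. PDHA1 guide 1 had normalized counts of 315 and 209.7 at T0, 179, 121 and 25.1 with DMSO, and 110.4, 56.4 and 85.6 with GSI. PDHA1 guide 5 had 862 and 153 at T0, 140.3, 228 and 161 with DMSO, and 125, 109 and 114 with GSI. Both had all GSI cultures below both T0 aliquots, with log2 fold changes in GSI against T0 of -1.63 ± 0.55 (SE, edgeR adjusted p = 0.491) and -2.11 ± 0.64 (SE, edgeR adjusted p = 0.484). PDHA1 guide 2 went the other way, with 0 and 0 at T0, 4.38, 14.4 and 92.3 with DMSO, and 13.5, 80.3 and 13.6 with GSI. Against a floor of 3 counts over the T0 group, guide 2 was 26.1-fold higher with DMSO and 31.4-fold higher with GSI. The floor covers counting error only. Other guides differed by more between the T0 aliquots, such as PDP1 guide 4 at 138 and 0, so these values are no lower bounds. The gene's median was 0.23 ± 3.75 in GSI against T0 while RRA gave its lower p on the low side (rank 338, adjusted p = 0.609 from edgeR guide tests), so that the median and the test had opposite signs. Without T0 replicate 1, the rank was 11322. Its log2 fold change was -0.11 ± 3.66 in DMSO against T0 and -0.17 ± 0.60 in GSI against DMSO.

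PDHB, the other E1 subunit (chr3:58427630-58433857, minus strand), had levels of 0.39 and -0.39 at T0, -0.13, -0.18 and 0.21 with DMSO, and -0.01, 0.53 and 0.48 with GSI, and its groups overlapped. PDHB had a log2 fold change of 0.10 ± 0.29 in GSI against DMSO, -0.22 ± 1.35 in DMSO against T0 and 0.31 ± 1.30 in GSI against T0. PDHX, the E3-binding protein (chr11:34915829-35020591, plus strand), had levels of -0.09 and 0.09 at T0, 1.17, 1.01 and 1.00 with DMSO, and 1.28, 0.45 and 1.05 with GSI, with all cultures of day 14 above both T0 aliquots. By mean normalized count, PDHX had 101 and 77.7 at T0 and 159, 106 and 92.3 with DMSO, so that these overlapped. The GSI cultures, at 143, 113 and 116, lay above both T0 aliquots on this scale too. Its guides were divided in DMSO against T0. PDHX guide 2 had normalized counts of 172 and 221 at T0, 47.1, 71.3 and 23.9 with DMSO, and 105, 115 and 97.1 with GSI. PDHX guide 4 had 72.0 and 3.80 at T0, 488, 141 and 175 with DMSO, and 284, 192 and 131 with GSI. PDHX guide 5 had 34.3 and 39.9 at T0, 222, 96.6 and 137 with DMSO, and 117, 38.1 and 107 with GSI. Guide 2 was lower in all cultures than at T0, whereas guides 4 and 5 were higher in all DMSO cultures. PDHX had a log2 fold change of 0.09 ± 1.77 in DMSO against T0, 0.50 ± 1.10 in GSI against T0 and 0.23 ± 0.80 in GSI against DMSO. The first was 0.99 without T0 replicate 1, -0.09 without T0 replicate 2 and -0.19 with size factors from the non-targeting controls, so that neither its size nor its sign was settled. PDHX differed in direction between the library parts in DMSO against T0, with a median of -0.63 over the guides of part A and 2.03 over those of part B, and in GSI against DMSO the parts had 1.15 and -0.41. Such differences were common among the members. Opposite signs were also found for PDHA1, PDHB, DLD, PDK1 and PDK2 in DMSO against T0. In GSI against DMSO, DLAT, PDK2, PDK3 and PDP2 had them too.

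**Figure D4:**
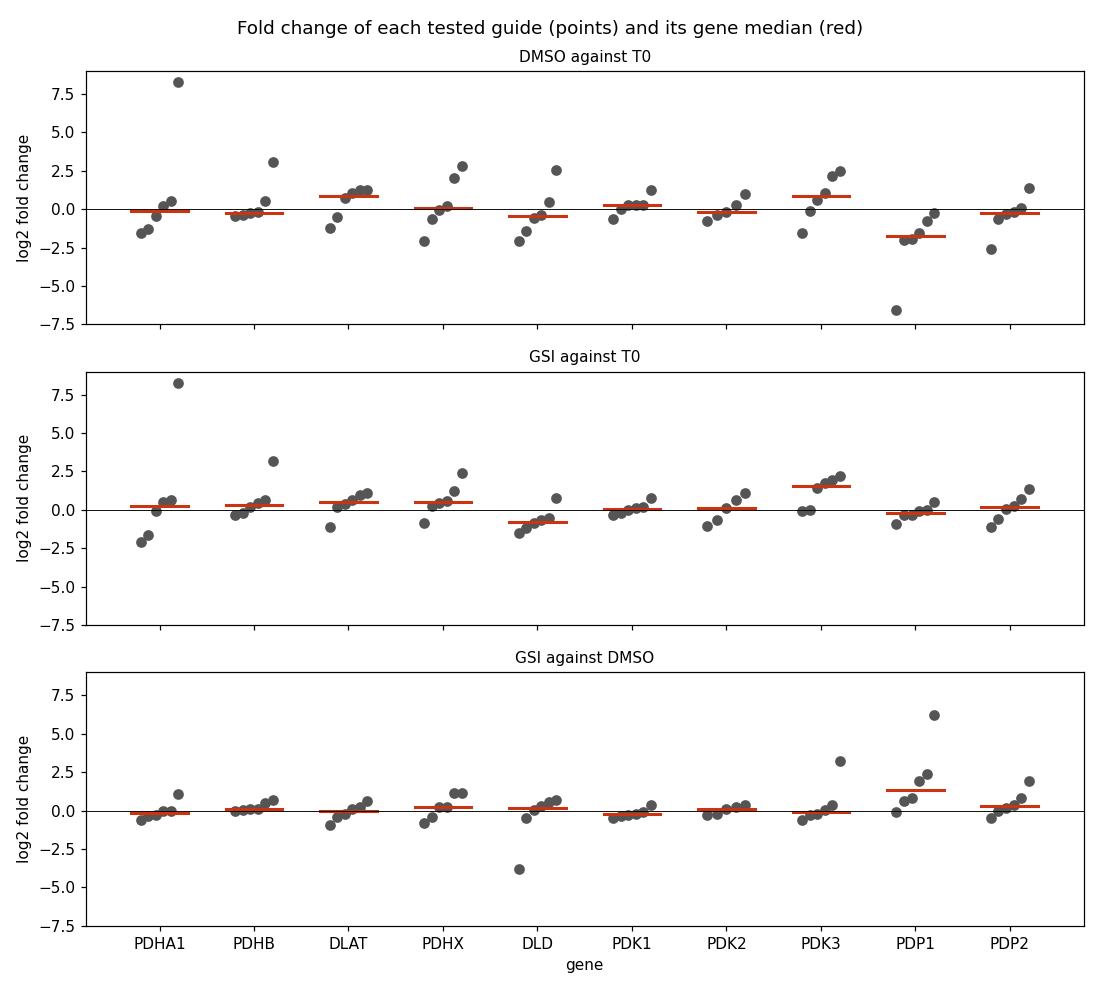
Log2 fold change of each tested guide against the 10 member genes (points, ordered within a gene by value) and the median of the gene (red line), for DMSO against T0, GSI against T0 and GSI against DMSO. Against T0, the guides of PDHA1 spread most widely, with an SD of 3.66 for DMSO and 3.75 for GSI. In GSI against DMSO, PDP1 has the widest spread, at 2.26, and the highest median. PDP1, DLD and PDK3 had SDs of 0.45, 0.78 and 0.99 in GSI against T0. In GSI against DMSO, their SDs were wider, at 2.26, 1.68 and 1.42. The points farthest from 0, PDHA1 guide 2 and PDP1 guide 3, rest on groups with 0 or 1 raw counts, and their fitted values depend on how edgeR treats such counts.

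Counted over the complex, no member passed the threshold in any comparison. In GSI against DMSO, 0 of 59 guides had an adjusted p under 0.05 in edgeR (background over all guides 0%), while 1 had an unadjusted p under 0.05 on the low side (background 1.50%) and 4 on the high side (background 1.53%), 3 of them against PDP1. Of the 10 genes, 0 were called on the low side (background 0%) and 0 on the high side (background 0%). At an unadjusted p under 0.05 there were 0 on the low side (background 5.10%) and 1, PDP1, on the high side (background 5.00%). Levels without overlap were found in 0 genes for lower values with GSI (background 4.24%) and in 1 gene, PDP1 again, for higher values (background 5.20%). PDP1 is taken to have been chosen by this contrast, and nothing is read from its count. With DESeq2 in place of edgeR, 0 member guides and 0 member genes were called. The median log2 fold change of the 59 guides was 0.08, against -0.02 over all guides against genes, and 0.29 without GSI replicate 1 and 0.11 without DMSO replicate 1.

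In DMSO against T0, 0 of 59 guides were called by edgeR (background 0%), with 4 at an unadjusted p under 0.05 on the low side (background 3.62%) and 5 on the high side (background 4.20%). No gene of the 10 was called on the low side (background 0.0323%) or on the high side (background 0%). At an unadjusted p under 0.05, 1 gene, PDP1, lay on the low side (background 6.30%) and 1 gene, PDK3, on the high side (background 5.30%). Levels were lower without overlap in 1 gene, PDP1 (background 8.41%), and higher without overlap in 4 genes, DLAT, PDHX, PDK1 and PDK3 (background 21.8%). The median over the member guides was -0.17, against -0.0039 over all guides against genes and 0.25 over the non-targeting controls. DESeq2 called 7 member guides, but also 6692 of all guides.

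In GSI against T0, 0 of 59 guides were called by edgeR (background 0%), with 3 at an unadjusted p under 0.05 on the low side (background 3.91%) and 4 on the high side (background 4.81%). No member gene was called on the low side (background 0%) or on the high side (background 0%). At an unadjusted p under 0.05, 1 gene, PDHA1, lay on the low side (background 5.88%) and 1 gene, PDK3, on the high side (background 5.39%). Levels were lower without overlap in 0 genes (background 8.22%) and higher without overlap in 4 genes, again DLAT, PDHX, PDK1 and PDK3 (background 24.0%), with the same T0 aliquots in both counts. The median over the member guides was 0.17, against -0.01 over all guides against genes and 0.19 over the non-targeting controls. The member median was -0.00081 without GSI replicate 2 and 0.32 without GSI replicate 1. DESeq2 called 6 member guides and 7949 of all guides. Leaving out 1 library turned the sign of the log2 fold change for 7 of the 10 members in DMSO against T0, for 6 in GSI against T0 and for 4 in GSI against DMSO.

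The genes that supply or serve the complex were described by lists. Of the 2 further regulators of the complex, PDK4, a kinase induced by fasting, had a log2 fold change of 0.94 ± 2.64 in DMSO against T0 (edgeR and RRA, adjusted p = 0.884), 0.92 ± 2.82 in GSI against T0 and 0.12 ± 0.47 in GSI against DMSO. PDPR, the regulatory subunit that acts with PDP1, had 0.08 ± 1.06, -0.30 ± 0.98 and -0.29 ± 0.43 in the same order. Neither passed the threshold on either side in any comparison.

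Lipoate is the cofactor that DLAT carries, and 13 genes of its synthesis and attachment were measured. For DMSO against T0, 0 of 13 passed the adjusted threshold in either direction. At an unadjusted p under 0.05, there were 0 on the high side (background 5.30%) and 2 on the low side (background 6.30%). These were LIAS, the lipoate synthase, at -1.58 ± 1.47 (edgeR and RRA, adjusted p = 0.312), and ISCA2, an iron-sulfur cluster assembly protein, at -2.14 ± 0.92 (edgeR and RRA, adjusted p = 0.314). FDX2, the ferredoxin of that assembly, was at -1.95 ± 2.03 with 3 of 5 guides below 0. It did not reach an unadjusted p under 0.05 (edgeR and RRA, adjusted p = 0.834). For GSI against T0, 0 of 13 passed. The same 2 genes had an unadjusted p under 0.05 on the low side (background 5.88%). ISCA2 was at -1.25 ± 0.94 and LIAS at -0.87 ± 1.55. In GSI against DMSO, 0 of 13 passed, and IBA57, another assembly factor, had the lowest p, at -0.69 ± 0.60. The median over the list's genes was -0.01, -0.12 and 0.18 in these comparisons, beside 0.0031, -0.00031 and -0.02 over all genes.

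Among 12 genes of pyruvate supply and its other fates, 0 passed the adjusted threshold in either direction in any comparison. PKM, the pyruvate kinase, had -1.61 ± 0.89 in DMSO against T0 (edgeR and RRA, adjusted p = 0.768), while GPT2, the mitochondrial alanine transaminase, had 0.94 ± 4.31 and SLC16A1, a carrier of lactate and pyruvate, 0.14 ± 3.01. With GSI, PKM had -1.13 ± 0.93 against T0. In GSI against DMSO, SLC16A1 had -0.67 ± 0.76 (edgeR and RRA, adjusted p = 0.959) and the malic enzyme ME1 0.26 ± 1.05 (adjusted p = 0.954 on the low side), a median above 0 with its lower p on the low side. Among 12 genes of the sister 2-oxo acid dehydrogenases and their regulators, which include other partners of DLD, 0 passed in either direction in any comparison. GLDC, of the glycine cleavage system, had 1.18 ± 1.54 in DMSO against T0 and -0.62 ± 0.80 in GSI against DMSO, and DLST, the E2 subunit of the 2-oxoglutarate dehydrogenase, had -0.04 ± 1.43 in DMSO against T0.

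Of 15 genes of the tricarboxylic acid cycle, which takes up the acetyl-CoA, 0 passed in either direction in any comparison. IDH3B, of the isocitrate dehydrogenase, had -1.04 ± 0.27 in DMSO against T0 (edgeR and RRA, adjusted p = 0.689). The cycle genes had a median of 0.0043 in DMSO against T0, 0.16 in GSI against T0 and 0.07 in GSI against DMSO.

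As a reference for loss of needed genes, 21 genes of the large ribosomal subunit were measured in the same fits. Their median was -1.23 in DMSO against T0 and -0.83 in GSI against T0, with 20 of 21 genes below 0 in each. Over all 18570 genes, 9227 and 9287 were below 0. In DMSO against T0, 1 of 21 passed on the low side (background 0.0323%), RPL37A at -2.77 ± 3.61 (RRA adjusted p = 0.0222 from edgeR tests). On that side, 12 had an unadjusted p under 0.05 (background 6.30%). With either T0 replicate 1 or T0 replicate 2 left out, 0 genes of the whole screen were called in this comparison. By comparison, the medians of the members' genes were -0.14 and 0.20, and of the members PDP1 in DMSO against T0, at -1.72, was the only value below the median of the ribosomal list in the same comparison. PDP1 is taken to have been chosen by a comparison that uses these DMSO cultures, and its adjusted p here was 0.581 (edgeR and RRA). Nothing is read from its place beside the ribosomal genes. In GSI against DMSO, the ribosomal list had a median of 0.19, with 3 genes at an unadjusted p under 0.05 on the high side (background 5.00%). Among them was RPL32 at 1.93 ± 1.93 (edgeR and RRA, adjusted p = 0.529).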

How the data were processed

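Guide abundance was measured in genomic DNA of MB157R cells in 2 T0, 3 DMSO and 3 GSI libraries, grouped by the treatment labels. Per the labels, reads were processed by the authors with bcl2fastq 2.19 (trimming), FastQC 0.11.5 (quality) and MAGeCK 0.5.9.2 (guide counts). The deposited counts are raw reads per guide. The deposited normalized table, a signal per guide, was the raw count times a constant in each library and was not used for tests. Reads were amplified by PCR without molecular identifiers, so that intervals and floors of 3 counts cover counting error only.

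Of 119461 guides, the 116852 averaging 10 raw counts or more were kept and, in R 4.3.3, tested on the counts with edgeR 4.0.16 (quasi-likelihood test, median-ratio size factors, only the compared groups in a fit). A fold change is on the log2 scale. Genes with at least 4 tested guides (18570) were tested by RRA with an alpha of 0.25 and p-values computed exactly from order statistics, Benjamini-Hochberg adjustment and a threshold of 0.05. MAGeCK's own test was not run. The script was tested on simulated data. Alternatives were other size factors, DESeq2 1.42.0, other count filters, 1 fit over 8 libraries, a replicate block, leaving out each library, an alpha of 0.05, the mean over guides, and counts summed over guides.

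The members and the lists of other genes were chosen with earlier results of these data known. The genes named are the 10 members, with guide values by library for the 3 members with the largest absolute log2 fold change in each comparison, and in each list the genes called and up to 3 genes with the lowest p. Guides against PDHA1 and PDHX shown beyond this rule were chosen after their values were seen, and some genes and 1 gene list that the rule allows are not reported here. Gene positions are from GENCODE on GRCh38. Guide sequences were not analysed here.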

Additional observations from a re-analysis of the deposited data

How the results depend on the processing

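PDP1 was called in GSI against DMSO only without GSI replicate 1, so that leaving out each library gave from 0 to 1 member genes called in that comparison. In DMSO against T0, DESeq2 called 7 member guides, leaving out each library called 0 to 3 (3 without T0 replicate 1), and the median over the member guides was -0.43 with size factors from the non-targeting controls and between -0.18 and 0.10 with a library left out (0.10 without T0 replicate 1). Those factors put the median of all genes at -0.26 in DMSO against T0 and -0.24 in GSI against T0. In GSI against T0, DESeq2 called 6 member guides, and leaving out each library called 0 to 8 (8 without T0 replicate 1, 3 without T0 replicate 2). Over all guides, none were called in the T0 comparisons as reported, but DESeq2 called 6692 and 7949, and edgeR called 8292 and 21033 when T0 replicate 1 was left out, 18 and 5497 when T0 replicate 2 was, and 34 in DMSO against T0 with all libraries in 1 fit. Over all genes, 6 were called in DMSO against T0, 0 with a mean count of at least 50 or without either T0 aliquot, 3 in 1 fit, and 101 with counts summed over guides, which also gave 20 in GSI against T0. The cause was not tested.

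Between GSI and DMSO cultures of the same replicate number, the deviations from the group means correlated by 0.280, 0.0644 and 0.121. Between cultures of different numbers the correlations ran from -0.161 to 0.0455, so that each GSI library correlated best with the DMSO library of its own number. Whether the numbers pair the cultures was not tested, and the main fits did not pair them. With the replicate number as a block, PDP1 in GSI against DMSO was 1.31 (rank 25, adjusted p = 0.827 in edgeR and RRA), the median over the member guides in GSI against T0 was 0.41, against -0.07 with size factors from the non-targeting controls and -0.00081 to 0.32 with a library left out, and no member was called. Over the alternatives, moves of the member genes' log2 fold changes were set against the SD of levels between libraries, taken from the compared group where it was larger. Of these values, 153 of 159 in GSI against DMSO, 129 of 149 in DMSO against T0 and 137 of 149 in GSI against T0 moved by less, and 15, 13 and 20 changed sign. That SD is wide where the T0 aliquots differ. For DLD in DMSO against T0, all 15 alternatives stayed within it while they ran from -0.83 to 0.45. Depth limits the guides with few counts, since by counting error alone a count of 0 allows up to 3 counts, or a normalized count of 2.38 to 4.04. The T0 aliquots of the pool differed by more than that, as PDP1 guide 4 had normalized counts of 138 and 0.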
